A study of Mus musculus with 8 samples.

Results

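The 39 genes described here were listed by name from the autophagy and lysosome pathway: 3 transcription factors of the MiT/TFE family, 4 genes that start an autophagosome, 4 genes of the conjugation step, 5 ATG8 genes, 4 cargo receptors, 5 lysosomal membrane and lipid-handling genes, 9 lysosomal enzymes and granulin, and 5 subunits of the V-ATPase. All 39 were found among the 53715 genes of the deposited table. The rule that lists them uses no expression value, but they were chosen with earlier results of these data known. RNA was sequenced from Sting-/- mouse macrophages in 8 libraries, 2 per group. The zfCTT group stably expressed mSTING-zfCTT, mouse STING carrying the zebrafish C-terminal tail (CTT). The mSTING group expressed mouse STING, the dCTT group expressed mSTING-dCTT, mouse STING without the tail, and the no_transgene group had the transgene label none. Every group, the no_transgene cells included, was labelled Sting-/- and was treated with CMA at 500 µg per ml for 4 h. CMA (10-carboxymethyl-9-acridanone) is a small molecule that activates mouse STING, and no unstimulated library was analysed here. The labels do not say whether a line is 1 clone, nor that replicates are independent cultures. The spread behind each p-value may therefore be technical only.

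Autophagy carries cytoplasmic material to the lysosome in a double-membrane vesicle, the autophagosome. Kinases and lipid-binding proteins start the vesicle, a ubiquitin-like conjugation system attaches ATG8 proteins to its membrane, cargo receptors link cargo to ATG8, and the lysosome, acidified by the V-ATPase proton pump, digests the content. TFEB and TFE3 enter the nucleus when lysosomes are stressed or nutrients are short and switch on many of these genes through a palindromic DNA element named CLEAR. STING is itself a trafficking protein: after activation it leaves the endoplasmic reticulum, induces lipidation of LC3 and is degraded in lysosomes, and its tail recruits the kinase TBK1, which phosphorylates IRF3 for interferon induction. These steps act largely on proteins, whereas the values below are RNA levels.

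The CLEAR element is shown first because it is the sequence through which TFEB and TFE3 are known to act. RefSeq promoters on GRCm38.p6, from 250 bases before to 50 bases after each RefSeq start, were matched for 30 of the 39 members. Some genes have several such starts, and a gene was counted if any of its promoters held the motif. The 8-letter core TCACGTGA, searched on both strands, stood in 5 of these 30 promoters (16.7%), against 1.12% of all 27025 gene promoters in the table. The 6-letter E-box CACGTG, which every such core contains, stood in 9 of 30 (30.0%), against 8.09% of all promoters. As CLEAR is already known as an element of many of these genes, higher shares among the listed members are no independent result. Windows of 60 bases around the core follow, each 5′ to 3′ on the gene's own strand, with the core in capitals.
Mcoln1, lysosomal calcium channel, chr8:3500447-3500506, plus strand: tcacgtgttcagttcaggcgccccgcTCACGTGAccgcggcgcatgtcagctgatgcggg
Ctsa, lysosomal carboxypeptidase, chr2:164833725-164833784, plus strand: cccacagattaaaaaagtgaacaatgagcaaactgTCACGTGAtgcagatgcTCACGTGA
Ctsd, aspartyl protease, chr7:142387893-142387952, minus strand: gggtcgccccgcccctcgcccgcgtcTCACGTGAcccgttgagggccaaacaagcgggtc
Atp6v0d1, membrane-sector V-ATPase subunit, chr8:105566061-105566120, minus strand: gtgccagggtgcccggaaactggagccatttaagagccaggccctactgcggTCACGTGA
Atp6v1a, catalytic V-ATPase subunit, chr16:44139358-44139417, minus strand: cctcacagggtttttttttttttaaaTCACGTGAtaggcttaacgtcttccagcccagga
Ctsa held the core 2 times in its window, and the other 4 genes held it 1 time each. The Ctsa window lies in the promoter of a second start, and the promoter at the first start of Ctsa held no core.

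An interferon-type element was searched as well, because interferon induction is a known output of the STING tail. The core, spelled GAAA, then any 2 letters, then GAAA, on both strands, was found in 2 of 30 member promoters (6.67%), against 3.99% of all promoters, and shared no base with an E-box in these 2 promoters. The windows below have this core in capitals, and in Lamp1 the capitals show it on the opposite strand. A match describes letters and no binding was measured.
Ctss, a cysteine protease of antigen presentation, chr3:95526726-95526785, plus strand: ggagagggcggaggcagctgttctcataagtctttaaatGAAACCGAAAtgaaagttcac
Lamp1, a major lysosomal membrane protein, chr8:13159001-13159060, plus strand: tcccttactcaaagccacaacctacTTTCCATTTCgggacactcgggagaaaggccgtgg

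Levels are RPKM, reads per kilobase of transcript per M reads, which adjusts for transcript length and for depth only. Recovered depths were 20.1 and 34.8 M reads in zfCTT, 88.1 and 88.2 M in mSTING, 55.7 and 171 M in dCTT, and 27.7 and 101 M in no_transgene. The gene that encodes STING, Tmem173, stood at 10.6 to 22.7 RPKM in the 6 transgene libraries, against 3.23 and 2.42 RPKM in no_transgene. Some Tmem173 transcript was thus counted in cells labelled as lacking the gene, and the labels do not say which part of it is altered. Cxcl10, an interferon-inducible chemokine, stood at 1275 and 734 RPKM in zfCTT and at 335 and 68.9 RPKM in mSTING. It stood at 0.909 and 1.19 RPKM in dCTT, against 0.657 and 0.614 RPKM in no_transgene. Of 10 macrophage markers, 9 reached 1 RPKM in at least 2 libraries, Mertk being the exception, and their summed level was 765 to 1034 RPKM in zfCTT, 918 to 1224 in mSTING, 1207 to 1330 in dCTT and 1560 to 1568 in no_transgene. No marker of fibroblasts, T cells, B cells, neutrophils, epithelial or dendritic cells reached 1 RPKM in 2 libraries, and no such list summed to more than 0.369 RPKM in any library. The sums of zfCTT and mSTING overlapped, and both zfCTT sums were below those of dCTT and no_transgene. The sum rests mainly on Tyrobp, Cd68 and Lyz2, and the markers did not all go one way: the zfCTT mean was above the no_transgene mean for 4 of 10, Adgre1, Ptprc, Fcgr1 and Aif1, and not for the other 6. Fcgr1, an Fc receptor, had 34.0 and 21.6 RPKM in zfCTT and 9.83 and 5.38 RPKM in no_transgene. The part of these markers in the results below was not tested. In bulk RNA, fewer cells of a type and less RNA per cell cannot be told apart.

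Most of the 39 genes were well expressed. Ctsz, a carboxypeptidase of the lysosome, was the highest, with a mean of 587 RPKM over the 8 libraries, followed by Lamp1 at 273 RPKM and Ctsd at 172 RPKM. Enzymes, Lamp1 and Sqstm1 made up the top of the range. The machinery that builds autophagosomes was lower, for example 4.18 RPKM for the initiating kinase Ulk1, 5.08 RPKM for the conjugating enzyme Atg7 and 9.61 RPKM for Becn1, the Beclin subunit of the lipid kinase complex. Tests were run for the 37 members with at least 1 RPKM in at least 2 of the 8 libraries. The other 2, the receptor gene Optn and the V-ATPase gene Atp6v0d2, lay below that filter and are described by their levels.

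**Figure D1:**
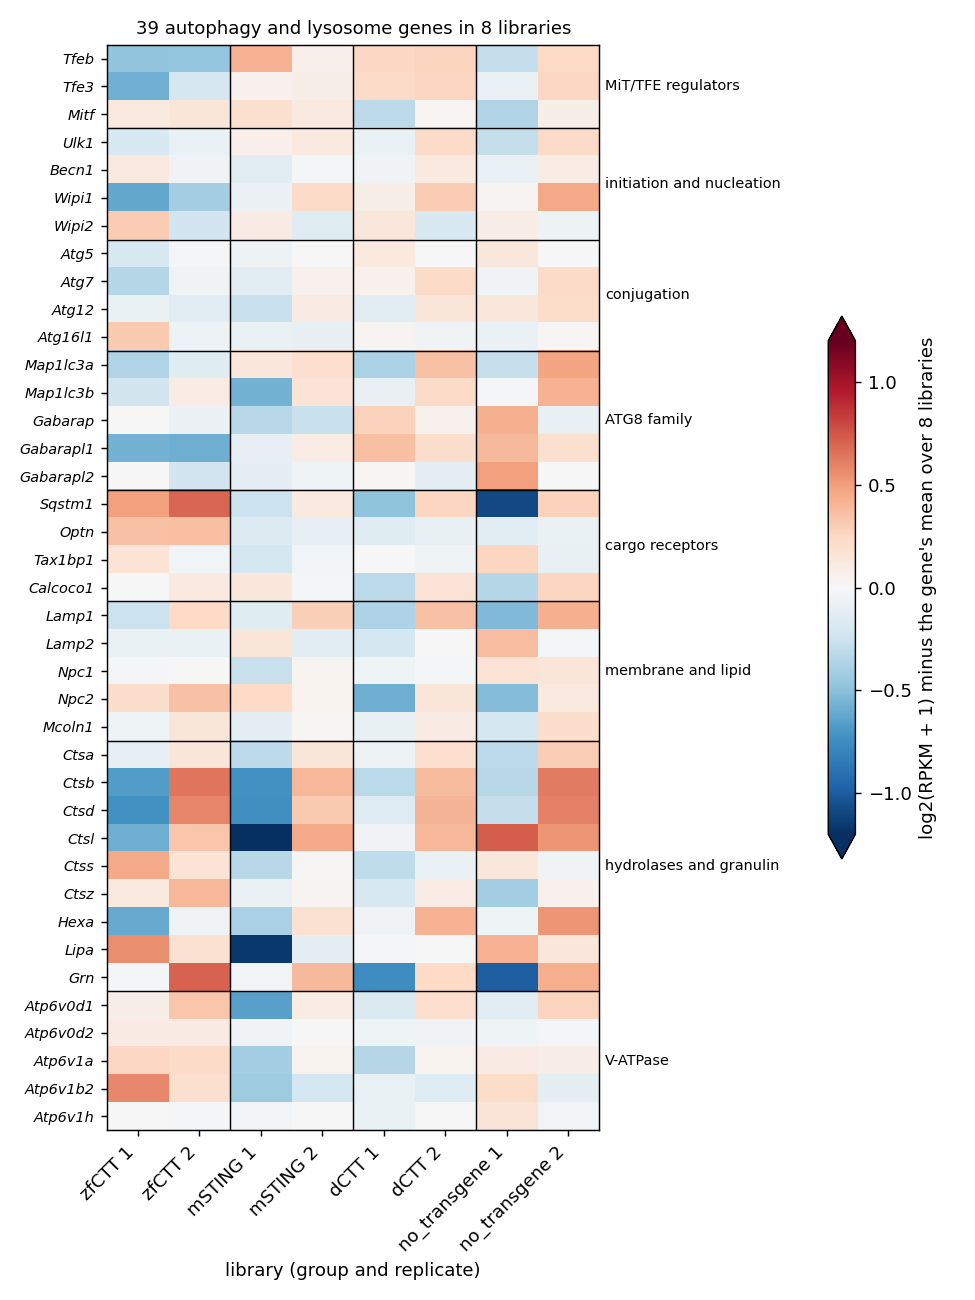
Colour map of the 39 genes (rows, grouped by role) in the 8 libraries (columns, zfCTT, mSTING, dCTT and no_transgene), as log2(RPKM + 1) minus the gene's mean over the 8 libraries. Gabarapl1, Wipi1 and Tfe3 are at their lowest and Optn at its highest in the 2 zfCTT columns, while Ctsb, Ctsd and Grn differ mainly between the 2 libraries within each group.

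The regulators Tfeb and Tfe3, the early autophagosome gene Wipi1 and the ATG8 gene Gabarapl1 had their lowest levels in the zfCTT libraries. The cargo receptor Sqstm1, the proteases Ctsz and Ctss and the V-ATPase gene Atp6v1a had their highest there. These 8 are 21.6% of the 37 tested members, near the 21.4% of all tested genes for which zfCTT stood apart from the 6 other libraries. No tested member passed the threshold in any of the 6 comparisons (limma, Benjamini-Hochberg adjusted p under 0.05 over all 13475 genes tested), and limma-voom on recovered reads likewise called 0 of the 37. In zfCTT against no_transgene the count was 0 of 37, where 1.08% of all tested genes passed, and 3 members, Tfe3, Wipi1 and Gabarapl1, had an unadjusted p under 0.05, where 13.4% of all genes did. The difference was positive for 17 members and negative for 20. The median log2 difference was -0.02 over the 39 genes and -0.07 over the 37 tested, and over all tested genes it was -0.04. The 95% interval of a member's difference reached 0.52 log2 units to each side at the median, a factor of 1.43. For 26 of the 37 members the interval lay within a 2-fold difference in either direction. The 11 wider ones were Wipi1, Map1lc3a, Gabarapl1, Sqstm1, Lamp1, Npc2, Ctsb, Ctsd, Ctsl, Hexa and Grn.

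Libraries of zfCTT and no_transgene did not overlap for 17 of 37 members (45.9%), close to the 39.6% of all tested genes. Both zfCTT libraries lay above both no_transgene libraries for Mitf, Sqstm1, Npc2, Ctss, Ctsz and Atp6v1a. Both lay below for Tfeb, Tfe3, Wipi1, Atg5, Atg7, Atg12, Gabarapl1, Gabarapl2, Lamp2, Npc1 and Ctsl. By direction these are 6 members, where 18.8% of all genes lay above, and 11 members, where 20.8% lay below.

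Among the MiT/TFE regulators, Tfeb had 3.69 and 3.72 RPKM in zfCTT, 7.68 and 5.79 in mSTING, 6.72 and 6.86 in dCTT, and 4.36 and 6.69 in no_transgene. Both zfCTT libraries were below all 6 others, although the first no_transgene library came near them. Against no_transgene the log2 difference was -0.45 ± 0.22 (SE, adjusted p = 0.448), and it was -0.19 without the second no_transgene library and -0.71 without the first. Tfe3 had 7.43 and 9.94 RPKM in zfCTT, 12.1 and 12.2 in mSTING, 13.7 and 14.1 in dCTT, and 10.95 and 14.0 in no_transgene. It too was lowest in the zfCTT libraries, with a log2 difference of -0.48 ± 0.20 (adjusted p = 0.366) that was -0.29 without the first zfCTT library. Mitf, the third family member and a regulator of macrophage and pigment-cell genes, ranged from 1.41 to 2.52 RPKM over the 8 libraries, with a mean of 2.39 ± 0.0502 in zfCTT and 1.82 ± 0.589 in no_transgene (SD, n = 2 each).

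Of the 4 initiation genes, Wipi1, a phosphoinositide-binding protein of the forming vesicle and a known TFEB target, had 0.746 and 1.02 RPKM in zfCTT. It had 1.56 and 2.14 RPKM in mSTING, 1.80 and 2.31 in dCTT, and 1.73 and 2.66 in no_transgene. Both zfCTT libraries were below all 6 others, on 66 and 156 reads. The log2 difference from no_transgene was -0.75 ± 0.22 (adjusted p = 0.202). This scale understates the difference of so low a gene: with a pseudocount of 0.1 it was -1.21. The related gene Wipi2 averaged 7.65 ± 2.25 RPKM in zfCTT and 7.34 ± 0.578 in no_transgene, and Ulk1 and Becn1 had log2 differences of -0.10 and 0.03.

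In the conjugation group, Atg7 (the activating enzyme), Atg5 and Atg12 (the conjugate that, with Atg16l1, places ATG8 on membranes) had log2 differences of -0.29, -0.17 and -0.29 between zfCTT and no_transgene. Atg16l1 had 0.16. All 4 intervals included 0 and lay within a 2-fold difference.

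The ATG8 genes encode the proteins that are joined to the autophagosome membrane. All 5 had negative differences in zfCTT against no_transgene, with a median of -0.36 on the log2 scale. For 2 of the 5 the zfCTT libraries lay wholly below those of no_transgene, where 20.8% of all tested genes did. The sign was not particular to zfCTT. In mSTING against no_transgene 4 of the 5 were negative, with a median of -0.34, and 3 lay wholly below, where 17% of all genes did. In dCTT against no_transgene all 5 were negative, with a median of -0.11, and 0 lay wholly below, where 6.69% did. Gabarapl1 (chr6:129533160-129542346, plus strand, GRCm38) had 18.5 and 18.2 RPKM in zfCTT, 25.9 and 29.5 in mSTING, 35.9 and 32.3 in dCTT, and 36.8 and 31.8 in no_transgene. The 2 zfCTT libraries were nearly alike and lay below every other library, and the mSTING libraries lay between them and the rest. The mean of 18.3 RPKM in zfCTT was 46.6% below the mean of 34.3 RPKM in no_transgene, and the log2 difference was -0.87 ± 0.17 with a 95% interval of -1.27 to -0.46. Its adjusted p was 0.0763, the lowest among the members. Of the exon bases of Gabarapl1, 28.3% are shared with 1700101I11Rik on the opposite strand, which had 4.75 and 6.29 RPKM in zfCTT, 11.3 and 11.4 in mSTING, 11.7 and 12.2 in dCTT, and 12.6 and 11.7 in no_transgene. Whether the counting used strand is not given in the sources used here, so reads of these overlapping genes cannot be told apart. The same limit touches Becn1 (43.9% of exon bases shared with Cntd1), Ctsl (26.8% with Gm47123) and Sqstm1 (17.3% with Mrnip). Map1lc3a, Map1lc3b (the LC3 genes), Gabarap and Gabarapl2 had log2 differences of -0.36, -0.26, -0.21 and -0.36.

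**Figure D2:**
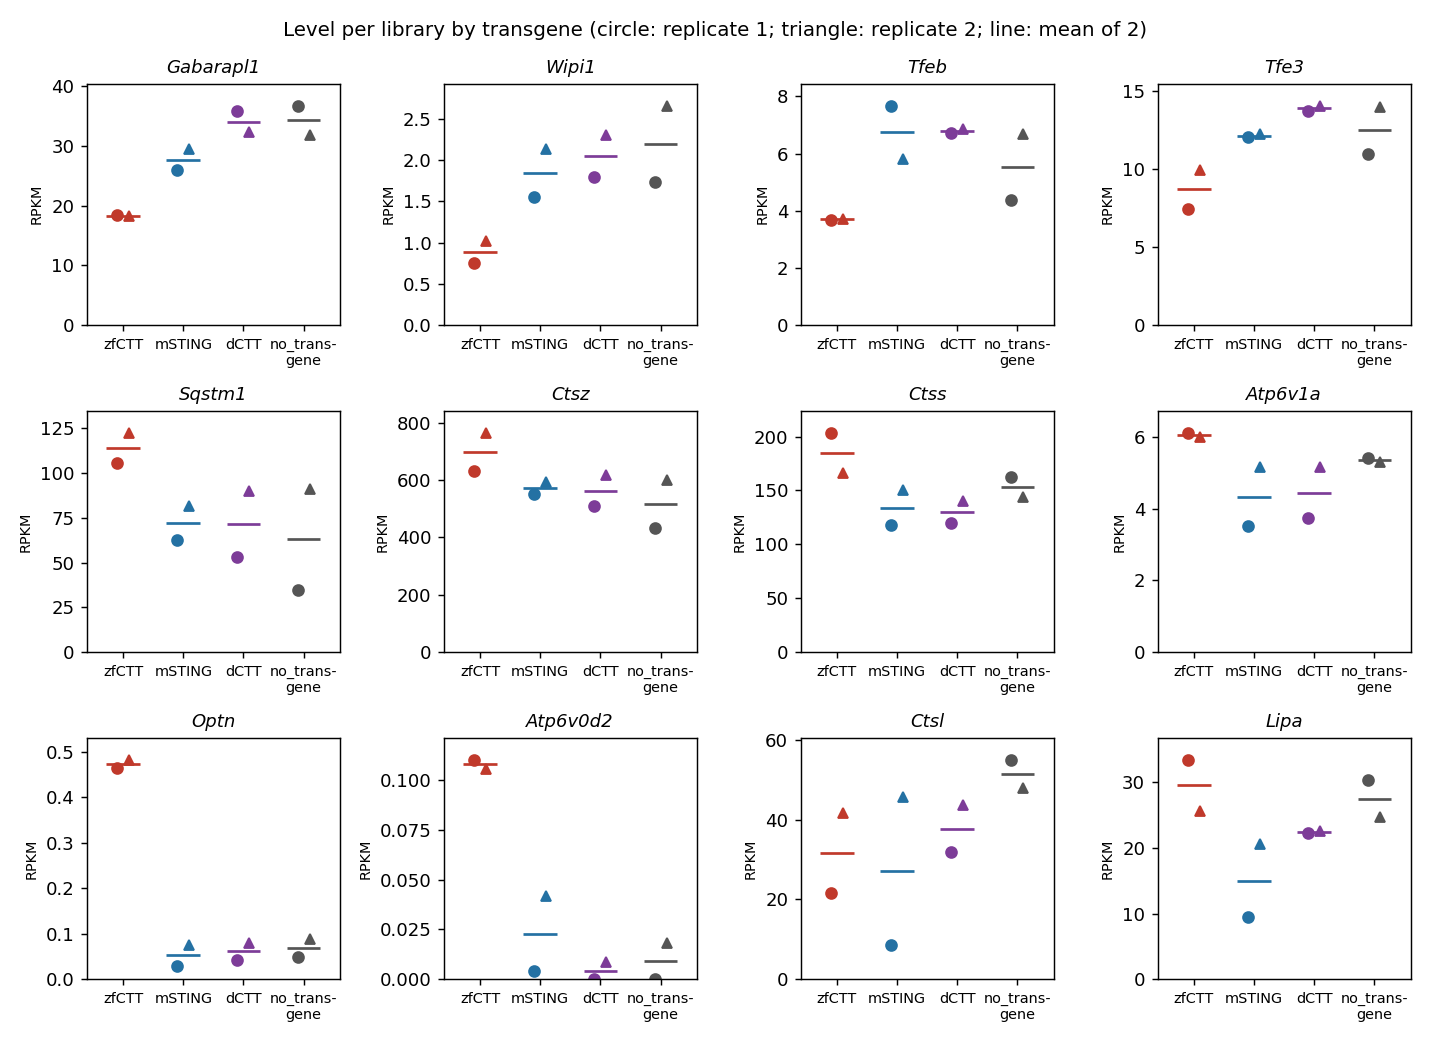
RPKM (linear axes from 0) of selected genes in each library, as a circle for replicate 1 and a triangle for replicate 2, with the group mean as a line, for zfCTT, mSTING, dCTT and no_transgene from left to right. Gabarapl1 sits at 18.5 and 18.2 RPKM in zfCTT and at 31.8 or more in dCTT and no_transgene, while Ctsl in mSTING spans 8.67 to 45.6 RPKM between its 2 libraries.

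Of the cargo receptors, Sqstm1, which encodes p62, a receptor for ubiquitinated cargo, had 106 and 123 RPKM in zfCTT. It had 62.6 and 81.4 RPKM in mSTING, 53.3 and 89.9 in dCTT, and 34.8 and 91.1 in no_transgene. Both zfCTT libraries were above all 6 others, but the 2 no_transgene libraries were far apart. The log2 difference of 0.998 ± 0.47 from no_transgene (adjusted p = 0.423) was 0.32 without the first no_transgene library and 1.68 without the second. Tax1bp1, a further receptor for ubiquitinated cargo, and its relative Calcoco1 had log2 differences of -0.02 and 0.10.

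Optn, the gene for optineurin, a receptor that binds TBK1, was the member with the clearest separation, at a level too low for the filter. It had 0.465 and 0.482 RPKM in zfCTT, 0.0302 and 0.0756 in mSTING, 0.0431 and 0.0808 in dCTT, and 0.0480 and 0.0895 in no_transgene. These values rest on 35 and 63 reads in zfCTT, 10 and 25 in mSTING, 9 and 52 in dCTT, and 5 and 34 in no_transgene. The zfCTT mean was 6.89 times the no_transgene mean. Without a filter on low values, Optn rose in zfCTT against no_transgene with an adjusted p of 0.0359, against mSTING with 0.0276 and against dCTT with 0.0357 (limma). With voom weights on recovered reads, for genes with at least 10 reads in at least 2 libraries, the log2 difference from no_transgene was 2.70 ± 0.58 and the adjusted p was 0.0861. Against mSTING this adjusted p was 0.104 and against dCTT 0.0504, so the call depends on the model.

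Among the membrane and lipid-handling genes, log2 differences between zfCTT and no_transgene ran from -0.25 for Lamp2 (a membrane protein needed for fusion with autophagosomes) to 0.48 for Npc2 (a soluble cholesterol carrier). Npc2 had 45.8 and 50.7 RPKM in zfCTT and 27.1 and 43.0 RPKM in no_transgene. Lamp1, Mcoln1 and the cholesterol exporter Npc1 had 0.04, 0.05 and -0.16. No interval of the 5 excluded 0.

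Of the 9 enzymes and granulin, Ctsz had 632 and 765 RPKM in zfCTT, 550 and 592 in mSTING, 509 and 616 in dCTT, and 434 and 600 in no_transgene. Ctss had 204 and 167 RPKM in zfCTT, 118 and 150 in mSTING, 120 and 140 in dCTT, and 163 and 144 in no_transgene. For both genes the zfCTT libraries lay above all 6 others. Their log2 differences from no_transgene were 0.45 ± 0.23 for Ctsz (adjusted p = 0.472) and 0.27 ± 0.21 for Ctss (adjusted p = 0.635). The other 7 ranged from -0.75 for Ctsl to 0.62 for Grn, which encodes progranulin.

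Of the V-ATPase subunits, Atp6v1a had 6.12 and 6.01 RPKM in zfCTT, 3.52 and 5.16 in mSTING, 3.73 and 5.17 in dCTT, and 5.41 and 5.31 in no_transgene. The zfCTT libraries were above all others, and the log2 difference from no_transgene was small, at 0.15 ± 0.21 (adjusted p = 0.809). Atp6v1b2, Atp6v0d1 and Atp6v1h had 0.33, 0.13 and -0.07. Atp6v0d2, an isoform known from osteoclasts and macrophages, was near the limit of detection with 0.110 and 0.106 RPKM in zfCTT (6 and 10 reads), 0.00418 and 0.0418 in mSTING (1 and 10 reads), 0 and 0.00859 in dCTT (0 and 4 reads), and 0 and 0.0182 in no_transgene (0 and 5 reads). Its zfCTT libraries were the highest of the 8, and it was not called against no_transgene without the filter (adjusted p = 0.105) or with voom weights (adjusted p = 0.276).

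**Figure D3:**
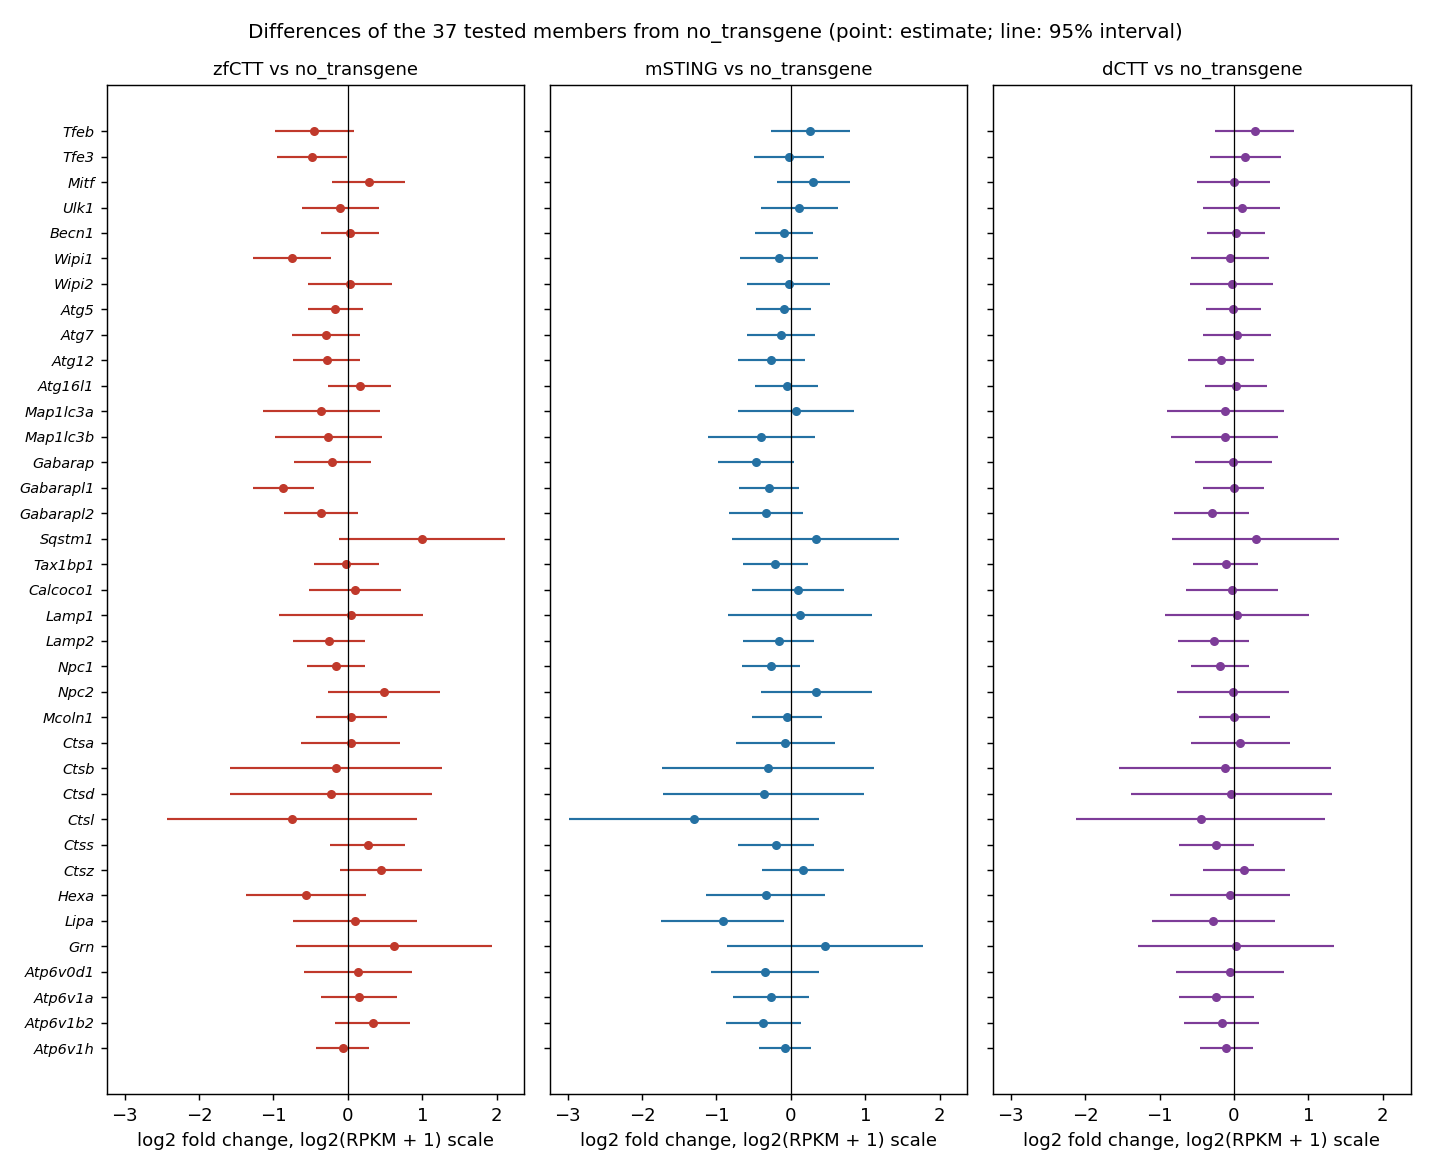
Log2 differences with 95% intervals (limma, log2 of RPKM + 1) of the 37 tested members, grouped by role, for the comparisons with no_transgene. For zfCTT the interval of Gabarapl1 runs from -1.27 to -0.46, whereas those of Ctsb, Ctsd and Ctsl extend beyond 2-fold on at least 1 side.

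The mSTING cells were set against no_transgene to see the response to the full-length mouse protein. None of the 37 members passed the threshold, as did none of all tested genes (0%), and 1 member, Lipa, had an unadjusted p under 0.05, where 3.47% of all genes did. Cxcl10, at 335 and 68.9 RPKM in mSTING and 0.657 and 0.614 RPKM in no_transgene, was thus not called either. A count of 0 here does not show that no gene differed. Differences were negative for 27 members and positive for 10, and the median was -0.10 over the 39 genes and -0.14 over the 37 tested, against -0.04 over all tested genes. Libraries did not overlap for 11 members (29.7%), 10 of them lower in mSTING, against 32.3% of all genes, of which 17% were lower and 15.3% higher. Lipa, the lysosomal acid lipase, had 9.47 and 20.6 RPKM in mSTING and 30.3 and 24.7 RPKM in no_transgene. Both mSTING libraries were lower, and the log2 difference of -0.91 ± 0.35 (adjusted p = 0.840) was -0.39 without the first mSTING library and -1.44 without the second. Ctsl, a cysteine protease, had 8.67 and 45.6 RPKM in mSTING and 55.0 and 47.8 RPKM in no_transgene. Its log2 difference of -1.30 ± 0.70 (adjusted p = 0.840) was -0.17 without the first mSTING library and -2.44 without the second, so that the first library decides its size. In the enzyme group 7 of 9 members and among the V-ATPase subunits 4 of 4 tested had negative differences, with smallest adjusted p-values of 0.840. In dCTT against no_transgene these counts were 6 of 9 and 4 of 4. In the wider list described below, 17 other V-ATPase genes had 9 positive and 8 negative differences in mSTING, with a median of 0.02. Its 38 tested hydrolases had 10 positive and 28 negative ones.

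In dCTT against no_transgene, the protein without its tail was set against no STING. No member passed, nor did any tested gene (0%), and 0 members had an unadjusted p under 0.05, where 0.267% of all genes did. The median over the 39 genes was -0.03, against -0.01 over all tested genes, and 12 differences were positive and 25 negative. They ran from -0.45 for Ctsl, which had 31.9 and 43.6 RPKM in dCTT and 55.0 and 47.8 RPKM in no_transgene, to 0.29 for Sqstm1. Groups did not overlap for 6 members (16.2%), against 14.4% of all genes. Tfeb was the 1 member above, where 7.75% of all genes lay above, and Npc1, Ctsl, Ctss, Lipa and Atp6v1a lay below, where 6.69% did. For 30 of the 37 members the interval lay within a 2-fold difference.

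The zebrafish tail was then compared with the mouse tail directly. In zfCTT against mSTING 0 of 37 members passed, where 0.119% of all tested genes did, and Tfeb, Wipi1, Gabarapl1, Lipa and Atp6v1b2 had an unadjusted p under 0.05, where 11% of all genes did. The median log2 difference was 0.11 over the 39 genes and 0.01 over all tested genes. Lipa had 33.4 and 25.6 RPKM in zfCTT and 9.47 and 20.6 RPKM in mSTING, a log2 difference of 1.01 ± 0.35 (adjusted p = 0.423) that was 0.49 without the first mSTING library and 1.53 without the second. Atp6v1b2, a subunit of the catalytic sector, had 21.7 and 16.4 RPKM in zfCTT and 10.3 and 12.1 RPKM in mSTING. All 4 tested V-ATPase subunits and 8 of 9 enzymes and granulin had positive differences, and all 3 MiT/TFE genes had negative ones. The wider list described below did not share the pattern of the enzymes. Its 38 tested hydrolases had 17 positive and 21 negative differences in zfCTT against mSTING, with a median of -0.03. Its 17 tested V-ATPase genes had 11 positive and 6 negative ones. Its 15 tested MiT/TFE and nutrient-sensing genes had 5 positive and 10 negative ones. Non-overlapping libraries were seen for 15 members (40.5%), 9 higher and 6 lower in zfCTT, against 49.4% of all genes, of which 24.9% were higher and 24.4% lower.

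In dCTT against mSTING 0 of 37 members and none of all tested genes (0%) passed, and 0 members had an unadjusted p under 0.05, where 2.49% of all genes did. The median over the 39 genes was 0.08, against 0.03. Gabarap, a further ATG8 gene, had 52.8 and 44.9 RPKM in dCTT and 34.2 and 36.0 RPKM in mSTING, and both mSTING libraries were the lowest of the 8. Libraries did not overlap for 7 members (18.9%), 6 higher and 1 lower in dCTT, against 29% of all genes, of which 16.2% were higher and 12.8% lower.

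In zfCTT against dCTT 0 of 37 members passed, where 1.08% of all tested genes did, and Tfeb, Tfe3, Wipi1 and Gabarapl1 had an unadjusted p under 0.05, where 12.7% of all genes did. Gabarapl1 had a log2 difference of -0.86 ± 0.17 (adjusted p = 0.0822). The median was 0.02 over the 39 genes and 0.01 over the 37 tested, and over all tested genes it was -0.02. Libraries did not overlap for 16 members (43.2%), 9 higher and 7 lower in zfCTT, against 44.8% of all genes, of which 20.1% were higher and 24.7% lower. The comparisons with no_transgene share its 2 libraries, and those among transgene groups share libraries likewise, so their values are not independent of each other.

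Seen over all libraries, zfCTT stood apart from the 6 others for 8 of 37 tested members (21.6%), where 21.4% of all tested genes did. The 4 above were Sqstm1, Ctss, Ctsz and Atp6v1a, where 10.5% of all genes lay above, and the 4 below were Tfeb, Tfe3, Wipi1 and Gabarapl1, where 10.9% lay below. The mSTING libraries lay below all others for Atg16l1, Gabarap, Lipa and Atp6v1b2, where 3.38% of all genes lay below, and above for 0 members, where 2.82% lay above; together these are 10.8% of the members and 6.2% of all genes. The no_transgene libraries lay above all others for Npc1 and Ctsl, where 1.75% of all genes lay above, and below for 0 members, where 1.89% lay below. Together these are 5.41% of the members and 3.64% of all genes. The dCTT libraries stood apart for 0 members, against 2.08% of all genes. The member shares for zfCTT are thus near the background.

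The difference between the 2 libraries of a group was set against the difference between group means. A mean of 2 libraries varies less than a single library, so the first can exceed the second by construction. For 29 of 37 (78.4%) the largest difference between the 2 libraries of a group exceeded the largest difference between group means on the log2 scale, against 68.4% of all tested genes. The 8 exceptions were Tfeb, Tfe3, Wipi1, Atg5, Atg7, Gabarapl1, Ctss and Atp6v1b2. Ctsb, a cysteine protease, had 74.4 and 187 RPKM in zfCTT, 71.8 and 157 in mSTING, 95.1 and 155 in dCTT, and 94.3 and 185 in no_transgene. Ctsd had 97.3 and 243 RPKM in zfCTT, 96.9 and 201 in mSTING, 145 and 214 in dCTT, and 132 and 246 in no_transgene. In each group the second library was the higher for both genes.

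The same held for 16 of the 37 tested members (43.2%), where 17.3% of all tested genes had replicate 2 above replicate 1 in all 4 groups. They were Tfe3, Ulk1, Wipi1, Atg7, Map1lc3a, Map1lc3b, Sqstm1, Lamp1, Mcoln1, Ctsa, Ctsb, Ctsd, Ctsz, Hexa, Grn and Atp6v0d1. The ratio of replicate 2 to replicate 1 was 1.63 to 2.51 for Ctsb, 1.48 to 2.49 for Ctsd, 1.34 to 2.71 for Grn, 1.35 to 1.94 for Lamp1 and 1.38 to 1.51 for Hexa, a subunit of the ganglioside-degrading hexosaminidase. The opposite order in all 4 groups was seen for 1 member, Wipi2, where 14.4% of all genes had it. Replicate 2 was the deeper library in zfCTT, dCTT and no_transgene, and the 2 mSTING libraries had 88.1 and 88.2 M reads. Between those 2 mSTING libraries the ratio was 2.19 for Ctsb and 2.08 for Ctsd. The part of depth in the replicate order was not tested. Of the Ctsd exon bases 34.4% are shared with Gm49369 on the same strand, so the counting could split its reads.

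**Figure D4:**
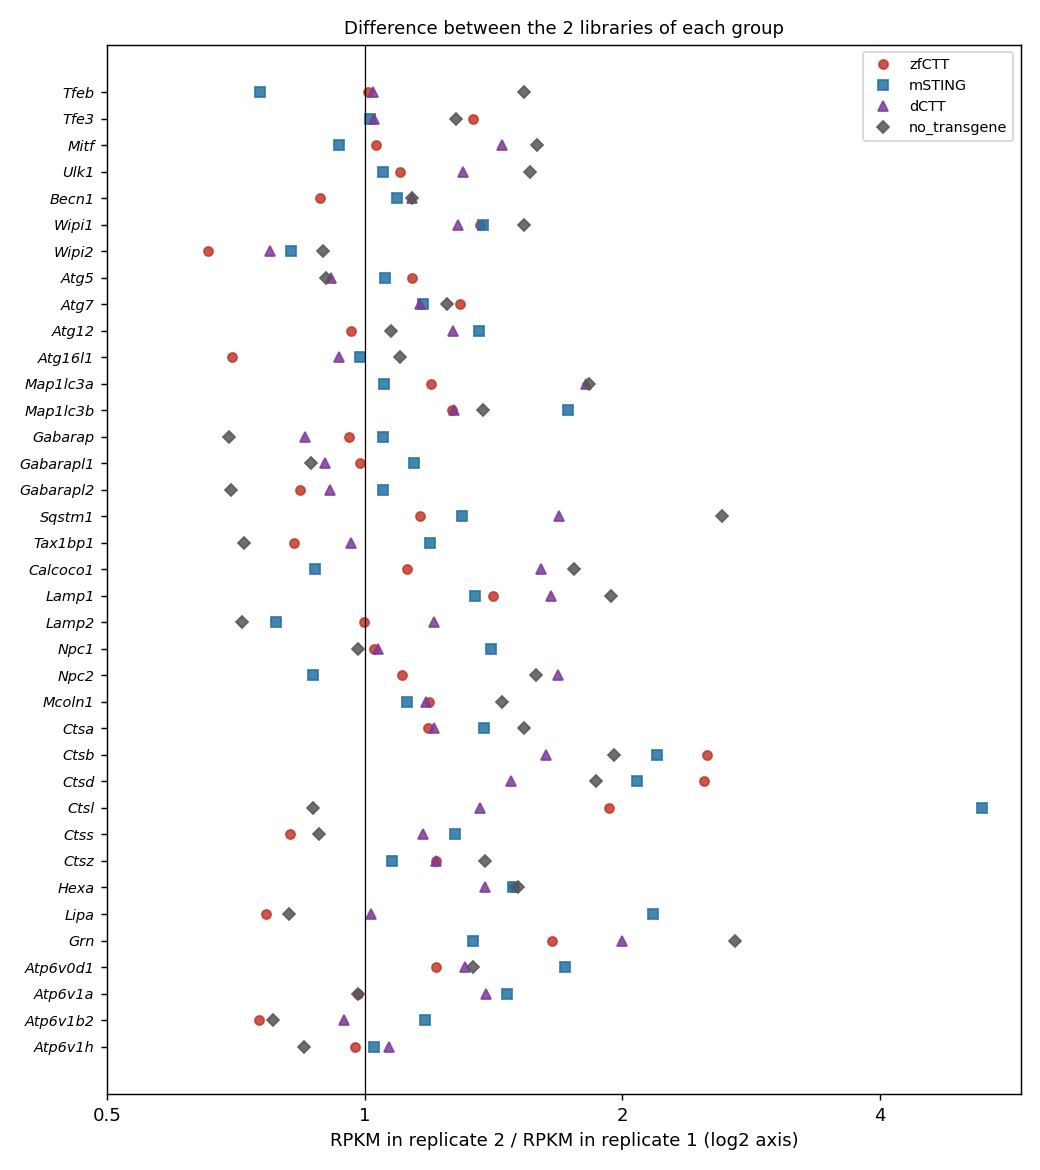
Ratio of replicate 2 to replicate 1 (log axis) for each tested member in the 4 groups. Ctsb lies between 1.63 and 2.51 in all 4 groups and Wipi2 between 0.656 and 0.895, with 16 members above 1 in every group.

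A wider list of 171 autophagy and lysosome genes was set beside the members. Of these, 170 were found and 143 tested, and 0 passed in each of the 6 comparisons. Their median log2 difference was -0.06 in zfCTT against no_transgene, -0.07 in mSTING against no_transgene and -0.02 in dCTT against no_transgene. An unadjusted p under 0.05 was reached by 18 of them (12.6%) in zfCTT against no_transgene, where 13.4% of all tested genes reached it. The count was 7 (4.9%) in mSTING against no_transgene, where 3.47% of all genes reached it, and 0 in dCTT against no_transgene, where 0.267% did. It was 12 (8.39%) in zfCTT against mSTING, 4 (2.8%) in dCTT against mSTING and 15 (10.5%) in zfCTT against dCTT, where 11%, 2.49% and 12.7% of all genes reached it. In zfCTT against no_transgene the 38 tested hydrolases had 10 positive and 28 negative differences, with a median of -0.19, and in mSTING against no_transgene 10 and 28, with a median of -0.19. Other V-ATPase subunits and accessory genes had 7 positive and 10 negative differences in zfCTT against no_transgene. Autophagy machinery had 12 positive and 16 negative, with a median of -0.01.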

How the data were processed

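Poly(A) RNA of 8 libraries was sequenced single-end, per the labels' protocols. The authors deposited RPKM per Ensembl mouse gene. The submitters' processing notes name cutadapt 1.16, HISAT2 2.1.0 and the builds GRCm38 and mm10. Which tool counted the reads, on which annotation release and with which strand setting, is not given in the sources used here. Symbols and coordinates came from GENCODE M21 on GRCm38, with a symbol found for 53620 of 53715 identifiers.

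Multiplied by exon length, 95.0% to 95.4% of the nonzero values fell within 0.05 of a whole number of reads, which gave depths of 20.1 to 171 M reads. The least depth, in zfCTT, limits low genes such as Optn most.

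RPKM are not counts, so limma 3.58.1 in R 4.3.3 was run on log2(RPKM + 1), which understates differences of low genes. Genes had to reach 1 RPKM in 2 or more of the 8 libraries, which kept 13475. A single fit held a mean for every group, with limma's moderated test (two-sided, variance trended on intensity) and Benjamini-Hochberg adjustment at 0.05 within each of 6 contrasts. A gene that reaches 1 only in zfCTT passes this filter. Levels carry the SD of 2 libraries and log2 differences the SE of the fit. The method was tested on simulated data with changes of 2-fold or more. These data held no smaller change and no shift shared by same-numbered replicates.

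The members and lists were chosen with earlier results of these data known. Levels could be given for any member. The plan gave differences for members whose libraries do not overlap between groups with a log2 difference of at least 0.8 in size. Differences of members outside this rule are printed as well, among them Tfeb, Tfe3, Wipi1, Ctsz, Ctss and Atp6v1a. Other members were singled out after their values were seen. Alternatives were a pseudocount of 0.1, no filter, median centring, a replicate block, limma-voom on recovered reads, and each library left out in turn. Limma-voom for genes with at least 10 reads in at least 2 libraries was added after seeing the data.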

Additional observations from a re-analysis of the deposited data

How the results depend on the processing

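The count of 0 called members held in all 6 comparisons under a pseudocount of 0.1, median centring, the replicate block, limma-voom with either filter and each left-out library; the exception was the test without a filter on low values, where 1 member, Optn, was called in zfCTT against no_transgene, against mSTING and against dCTT. No named difference changed its direction. Counts over all genes moved more. With a pseudocount of 0.1, 11 genes were called in mSTING against no_transgene, 0 in zfCTT against mSTING and 3 in dCTT against mSTING. With no filter the counts were 34 in zfCTT against no_transgene, 12 in mSTING against no_transgene, 29 in zfCTT against mSTING, 14 in dCTT against mSTING and 28 in zfCTT against dCTT. Limma-voom called 48 in zfCTT against no_transgene and 8 in zfCTT against mSTING, and with its filter of 10 reads 295 in zfCTT against dCTT. With 1 library left out, counts ran from 2 to 144 in zfCTT against no_transgene, 0 to 16 in mSTING against no_transgene, 0 to 5 in zfCTT against mSTING, 0 to 10 in dCTT against mSTING and 1 to 148 in zfCTT against dCTT; a lone library was assumed to vary like the other groups. The member median ran from -0.10 to 0.12 in zfCTT against no_transgene and from -0.0071 to 0.17 in zfCTT against mSTING. The cause of these moves was not tested.

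With the replicate block, 432 genes were called in zfCTT against no_transgene, 44 in zfCTT against mSTING and 409 in zfCTT against dCTT, and 5 of the wider list, Sgsh, Ctsh, Ctsf, Slc15a3 and Rogdi, in zfCTT against no_transgene and against dCTT. The labels do not say what a replicate number shares. The deviations of same-numbered libraries correlated at 0.264 (zfCTT and mSTING), 0.399 (zfCTT and dCTT), 0.433 (zfCTT and no_transgene), 0.0318 (mSTING and dCTT), 0.0364 (mSTING and no_transgene) and 0.762 (dCTT and no_transgene). As 2 of the 6 were under 0.1, the numbers were not taken as pairs.

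With 2 libraries per group, the 95% interval of a member's difference spanned a factor of 1.43 to each side at the median. Optn and Atp6v0d2 rest on few reads.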

Other observations

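Among the wider list, genes with the lowest adjusted p-values in zfCTT against no_transgene were chosen after their values were seen. Slc15a3, a lysosomal transporter of peptides and histidine, had 47.7 and 28.1 RPKM in zfCTT, 20.6 and 9.02 in mSTING, 9.29 and 7.35 in dCTT, and 8.91 and 7.08 in no_transgene. The zfCTT libraries were above all others, and the log2 difference from no_transgene was 2.07 ± 0.41 (SE, limma adjusted p = 0.0798). Rogdi, a gene tied to V-ATPase assembly, had 6.58 and 9.38 RPKM in zfCTT, 13.9 and 14.6 in mSTING, 19.6 and 17.8 in dCTT, and 16.1 and 18.4 in no_transgene. It was lowest in zfCTT, with a log2 difference of -1.04 ± 0.20 from no_transgene (adjusted p = 0.0723). Ctsf, a cysteine protease, had 13.0 and 10.2 RPKM in zfCTT and 22.6 and 19.8 RPKM in no_transgene (log2 difference -0.83 ± 0.20, adjusted p = 0.140).

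Acp5, the tartrate-resistant acid phosphatase of osteoclasts and macrophages, was under the filter, with 0.393 and 0.340 RPKM in zfCTT, 0.0279 and 0.0335 in mSTING, 0 and 0.0115 in dCTT, and 0 and 0.00974 in no_transgene. Both zfCTT libraries were above all others. Acp5 was called in the 3 comparisons of zfCTT when no filter was used. That setting also called Optn, which limma-voom with the filter of 10 reads did not call. The limma-voom adjusted p of Optn was 0.0861 against no_transgene, 0.104 against mSTING and 0.0504 against dCTT. No limma-voom result is given here for Acp5 itself. Its call rests on the setting without a filter, which is uncertain at such low levels.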
